A study of Mus musculus with 8 samples.

Results

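The genes described here are 47 interferon-stimulated effector genes of the mouse, a list of antiviral and related proteins chosen by name, and 47 of the 47 were found among the 24421 gene names of the files. They were measured by RNA sequencing of total RNA in the mouse mammary cancer line MCa-P1362, which was started from a spontaneous adenocarcinoma of a Balb/c female. The cells were separated by a flow sort for EpCAM, which joins epithelial cells to each other, and 4 groups of 2 libraries each were compared: monoculture EpCAM+, coculture EpCAM+, monoculture EpCAM- and coculture EpCAM-. No genotype or drug treatment separates the groups. All 4 come from a single line grown in the same serum-containing medium, and the protocol says that sorted cells were frozen at once or were first grown and passaged. The labels do not say which of these the words monoculture and coculture stand for, nor whether the 2 libraries of a group are separate cultures. The p-values therefore rest on the variation from library to library alone, and that may be technical.

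Interferons are secreted proteins that signal through cell-surface receptors, JAK kinases and STAT transcription factors to switch on a large set of genes. Type I and type III interferons act mainly at the interferon-stimulated response element (ISRE) in promoters, whereas interferon gamma acts mainly at the gamma-activated site (GAS). The products of the induced genes block viral entry, degrade or sense foreign RNA, tag proteins with the ubiquitin-like protein ISG15 and damp the pathway itself. Tumour cells can hold such genes on for long times, and the set is widely read as a sign of ongoing interferon signalling.

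The values are FPKM, read fragments scaled to the length of the transcript and to the size of the library, so levels of different genes can be set side by side. The sum of FPKM in a library ranged from 387489 to 414612 and the number of genes at 1 FPKM or more from 10634 to 11119; read depth is unknown. Across genes, log2 values correlated at 0.998 within groups and at 0.722 to 0.986 between groups. The sorted fractions carried their markers. Summed FPKM of 9 epithelial genes lay between 8178 and 9296 in the EpCAM+ libraries and between 15.0 and 28.9 in the EpCAM- libraries, while 10 mesenchymal genes summed to between 15.1 and 200 in EpCAM+ and to between 11525 and 11815 in EpCAM-. The coculture EpCAM+ libraries held mesenchymal markers at 1.71% to 1.74% of their EpCAM- level, against 0.121% to 0.133% in monoculture EpCAM+. Leukocyte genes, which could bring interferon-stimulated transcripts of their own, summed to between 1.20 and 3.91 FPKM over 15 genes in the 8 libraries. They were highest in monoculture EpCAM-, at 3.77 to 3.91, where Lyz2 made up most of the sum (3.10 and 3.02 FPKM). The pan-leukocyte gene Ptprc was at or near 0 in every library. In bulk RNA, fewer cells that express a gene and less RNA of it per cell cannot be told apart.

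The promoters of several of these genes are shown because they differ in the number of ISRE cores they hold, which can be read against the changes given below. The core searched was GAAA, any 2 bases, then GAAA, which on the other strand reads TTTC, any 2 bases, then TTTC, in RefSeq windows from 250 bases before to 50 after the start site (GRCm38.p6). It was found in 18 of the 37 genes of the set with a window (48.6%), against 3.99% of the 27025 genes in the table. The GAS core TTCNNNGAA, which reads the same on both strands, was found in 7 of the 37 (18.9%), against 9.55% of genes. No window was matched for Usp18, Oas1b, Oas2, Rtp4, Ifi27l2a, Mx1, Mx2, Parp9, Parp14 and Iigp1. The sequences run 5′ to 3′ on the strand of the gene, with matches to the ISRE core in capitals; a match is a description of letters and not a bound site. Isg15 (chr4:156200819-156200978, minus strand, bases -160 to -1) has 3 overlapping matches between -78 and -57:
Isg15: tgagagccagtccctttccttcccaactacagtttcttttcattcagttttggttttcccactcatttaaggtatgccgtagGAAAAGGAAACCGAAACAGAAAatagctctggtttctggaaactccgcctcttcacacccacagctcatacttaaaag
Bst2 (chr8:71537473-71537632, minus strand, bases -160 to -1) has 2 overlapping matches between -130 and -115:
Bst2: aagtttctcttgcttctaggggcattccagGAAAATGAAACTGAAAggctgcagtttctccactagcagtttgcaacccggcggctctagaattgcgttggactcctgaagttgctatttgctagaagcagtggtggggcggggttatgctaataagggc
Ifit1 and Ifit2 lie in the same cluster on chromosome 19, and their promoters differ. Ifit1 (chr19:34640729-34640888, plus strand, bases -160 to -1) has 2 matches between -104 and -76, both in the reverse orientation, and Ifit2 (chr19:34550534-34550693, plus strand, bases -160 to -1) has 0, in these bases and in both of its windows:
Ifit1: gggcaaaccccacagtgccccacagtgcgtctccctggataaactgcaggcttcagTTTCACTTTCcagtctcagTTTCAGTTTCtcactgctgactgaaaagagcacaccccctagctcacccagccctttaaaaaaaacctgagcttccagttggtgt
Ifit2: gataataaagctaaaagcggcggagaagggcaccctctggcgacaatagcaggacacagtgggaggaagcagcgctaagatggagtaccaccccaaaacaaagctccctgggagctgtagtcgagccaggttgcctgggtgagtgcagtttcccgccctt
Gbp2 (chr3:142620503-142620662, plus strand, bases -160 to -1) has 1 match between -59 and -50, in the reverse orientation. Ifitm2 (chr7:140955962-140956121, minus strand, bases -160 to -1) has 1 between -46 and -37, and its neighbour Ifitm3 has 2 within the first 30 transcribed bases (chr7:141010715-141010744, minus strand), which partly hold a GAS core as well:
Gbp2: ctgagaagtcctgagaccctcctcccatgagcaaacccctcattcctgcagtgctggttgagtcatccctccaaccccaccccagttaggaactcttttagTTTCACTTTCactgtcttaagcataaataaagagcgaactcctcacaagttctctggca
Ifitm2: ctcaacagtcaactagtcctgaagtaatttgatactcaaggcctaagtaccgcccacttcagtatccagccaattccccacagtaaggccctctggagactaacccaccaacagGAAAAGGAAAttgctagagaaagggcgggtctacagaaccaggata
Ifitm3: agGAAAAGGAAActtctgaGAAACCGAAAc

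Most of the set stood lower in monoculture than in coculture, in both fractions. Summed over the 47 genes, FPKM was 953 and 978 in monoculture EpCAM+, against 2093 and 2096 in coculture EpCAM+. It was 644 and 628 in monoculture EpCAM-, against 1762 and 1786 in coculture EpCAM-. Bst2, Ifitm2 and Ifitm3 made up most of each sum; without them it was 260.5 and 264 in monoculture EpCAM+ against 753 and 751 in coculture EpCAM+, and 99.7 and 99.6 in monoculture EpCAM- against 648 and 646 in coculture EpCAM-. The number of the 47 genes at 1 FPKM or more was 34 in both monoculture EpCAM+ libraries and 44 in both coculture EpCAM+ libraries, and 15 in both monoculture EpCAM- libraries and 40 in both coculture EpCAM- libraries. The median of the 47 was 3.50 and 3.49 FPKM in monoculture EpCAM+, against 10.6 and 10.5 in coculture EpCAM+, and 0.327 and 0.335 in monoculture EpCAM-, against 5.80 and 5.77 in coculture EpCAM-. Ifitm3 was the highest of the set in coculture EpCAM+, coculture EpCAM- and monoculture EpCAM+, and Ifitm2 in monoculture EpCAM-. Usp18 ranked 6 of 47 in coculture EpCAM- and 24 in monoculture EpCAM-.

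**Figure D1:**
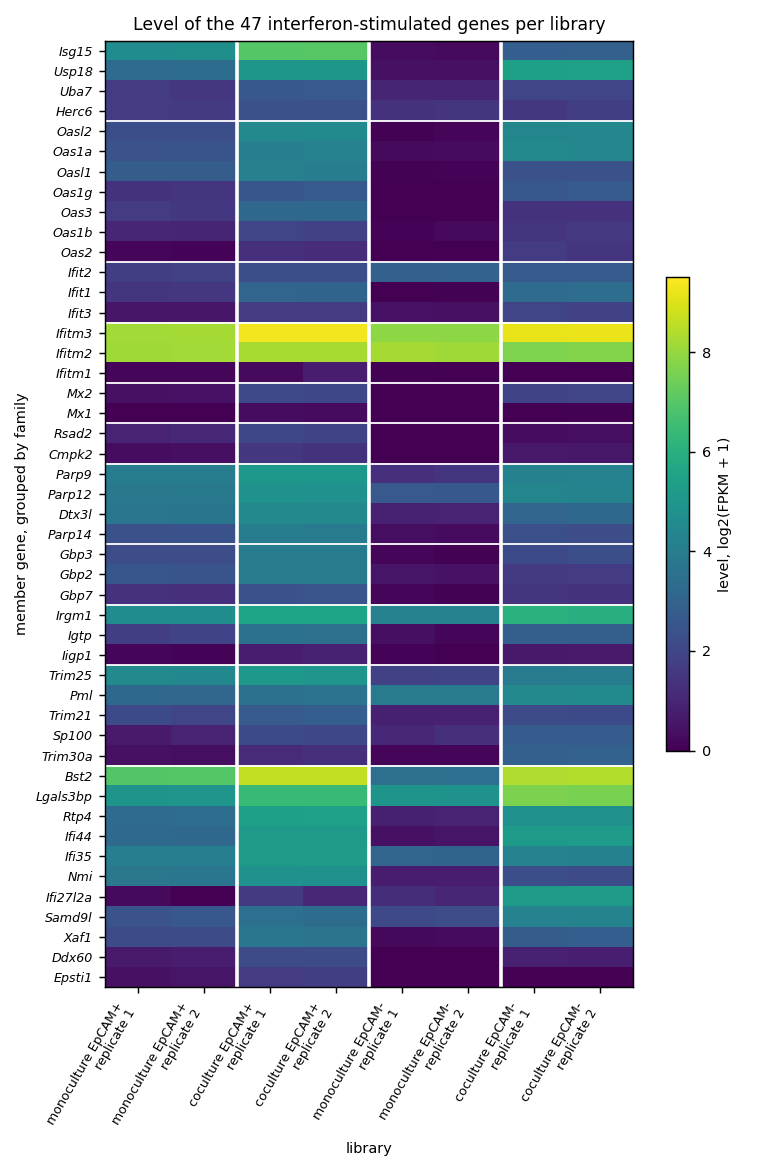
Level of each of the 47 genes in the 8 libraries as log2(FPKM + 1), with genes in rows grouped by family and libraries in columns, monoculture left of coculture in each fraction. The 2 libraries of a group look alike. The monoculture EpCAM- columns are the darkest, with 15 genes at 1 FPKM or more, and Ifitm2 and Ifitm3 are the brightest there.

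The test took in 44 of the 47 genes, those at 1 FPKM or more in 2 libraries or more, and left out Ifitm1, Mx1 and Iigp1. Changes are log2 fold changes of FPKM + 1, monoculture over coculture, which understate the change of low genes. Calls required both a change of 2-fold on that scale and a limma p under 0.05 after Benjamini-Hochberg adjustment across 12012 genes. In EpCAM+, 33 of the 44 were lower and 0 higher, where 1.67% of all genes tested were lower and 0.266% higher. In EpCAM-, 35 were lower and 0 higher, where 1.96% of all genes were lower and 2.56% higher. With no minimum change, 44 were lower in EpCAM+, beside 34.9% of all genes, and 40 were lower and 2 higher in EpCAM-, beside 30.3% and 32.4%. The median change of the 44 was -1.17 in EpCAM+ and -1.88 in EpCAM-, against -0.06 and 0.00 over all genes tested. As an alternative, a share of the EpCAM- levels, estimated from mesenchymal markers, was subtracted from the EpCAM+ libraries. After this 31 of the 44 were lower in EpCAM+, the calls of Ifi27l2a and Parp12 being lost. Whether the marker signal came from EpCAM- cells was not tested. Before subtraction 9 of 10 mesenchymal markers were also lower in monoculture EpCAM+. Scaling by the median of ratios gave 27 lower in EpCAM+, without Ifit3, Nmi, Parp9, Parp12, Rsad2 and Uba7, and quantiles gave 23, without these and Cmpk2, Gbp7, Ifi27l2a and Oas2. The filter lets through genes that are high in 1 group or in coculture alone, so these counts describe the genes that passed it. Mx2, Trim30a, Oas2 and Ifit3 reached 1 FPKM in coculture libraries alone, and Cmpk2, Ddx60 and Epsti1 in coculture EpCAM+ libraries alone. The falls of these genes are therefore a description. An exact test of 2 libraries against 2 cannot go below p = 0.333, so the test rests on the spread pooled over groups.

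The ISG15 system attaches a small ubiquitin-like protein to targets. Isg15 encodes that protein, Uba7 the enzyme that activates it, Herc6 a ligase that attaches it in the mouse, and Usp18 the protease that removes it and that also blocks signalling at the type I receptor. Isg15 (chromosome 4, 156199424 to 156200818; GRCm38, as are all gene positions given) had 23.5 and 25.9 FPKM in monoculture EpCAM+, against 127 and 129 FPKM in coculture EpCAM+. It had 0.238 and 0.186 FPKM in monoculture EpCAM-, against 6.24 and 6.54 FPKM in coculture EpCAM-. Both monoculture groups lay wholly below their coculture group, and every EpCAM+ library lay above every EpCAM- library. The log2 fold change was -2.33 in EpCAM+ (SE 0.050, adjusted p = 5.30e-08, limma) and -2.61 in EpCAM- (SE 0.050, adjusted p = 1.17e-08). The EpCAM+ change was the largest fall of the set in that fraction, rank 15 from the bottom of all genes tested.

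Usp18 (chromosome 6, 121245906 to 121270917) behaved otherwise across the fractions. It had 9.02 and 9.29 FPKM in monoculture EpCAM+, against 32.0 and 32.0 FPKM in coculture EpCAM+. In monoculture EpCAM- it had 0.334 and 0.335 FPKM, against 41.1 and 42.1 FPKM in coculture EpCAM-. It was highest in coculture EpCAM- and lowest in monoculture EpCAM-, with no overlap between groups. The change was -1.70 in EpCAM+ (SE 0.034, adjusted p = 3.38e-08, limma) and -5.0 in EpCAM- (SE 0.034, adjusted p = 1.56e-10), the lowest value of all 12012 genes in EpCAM-. The ratio of Isg15 to Usp18 in FPKM was 2.61 and 2.78 in monoculture EpCAM+ and 3.99 and 4.04 in coculture EpCAM+. In EpCAM- it was 0.714 and 0.556 in monoculture and 0.152 and 0.155 in coculture, so the genes for the modifier and for its protease stood in opposite order in the 2 fractions. Uba7 fell to 1.98 ± 0.200 FPKM in monoculture EpCAM+, against 5.12 ± 0.242 in coculture EpCAM+ (SD, n = 2, as for all means given). In EpCAM- it stood at 0.980 ± 0.0243 in monoculture and 2.95 ± 0.00908 in coculture, a change of -1.0 that lies just inside the 2-fold limit and was not called. Its EpCAM+ change was -1.04 and stood at -0.97 without monoculture EpCAM+ replicate 2 and at -1.0, just inside the limit, without coculture EpCAM+ replicate 2; in EpCAM- it was called, at -1.01, without monoculture EpCAM- replicate 2. Scaling by the median of ratios or by quantiles called Uba7 in EpCAM- (-1.02 and -1.04) and not in EpCAM+ (-0.97 and -0.86). Scaled to the same sum, or with 0.5 or 0.1 added to FPKM, it was called in both fractions. Herc6 changed by -0.71 in EpCAM+ and -0.21 in EpCAM- and was called in neither.

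The 2′-5′ oligoadenylate synthetases make the messenger that activates RNase L, and the Oasl proteins are relatives that bind RNA or RNA sensors. The 7 Oas genes of the set lie in 2 groups on chromosome 5. Oasl2 (114896936 to 114912234), the highest of them by the mean of the 8 libraries though not in every group, had 3.91 and 3.84 FPKM in monoculture EpCAM+, against 21.4 and 21.6 FPKM in coculture EpCAM+. Its level was 0.0447 and 0.110 FPKM in monoculture EpCAM-, against 19.5 and 19.9 FPKM in coculture EpCAM-. The 2 coculture groups were close to each other, and the monoculture groups lay far below and apart. The change was -2.21 in EpCAM+ (SE 0.044, adjusted p = 3.38e-08, limma) and -4.27 in EpCAM- (SE 0.044, adjusted p = 8.50e-10). As a family, 6 of 7 were called lower in EpCAM+ (median -1.28) and 7 of 7 in EpCAM- (median -2.29).

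The Oas genes left almost no signal in monoculture EpCAM-. There the family retained between 0% and 6.21% of the coculture level, with a median of 0.392%, against 6.45% to 37.4% and a median of 26.9% in EpCAM+. Oas1g and Oas2 were listed at 0 in both monoculture EpCAM- libraries, and Oas3 stood at 0.00459 ± 0.00649 FPKM. Oas1a averaged 4.52 ± 0.116 FPKM in monoculture EpCAM+ against 16.8 ± 1.02 in coculture EpCAM+, and 0.188 ± 0.0217 in monoculture EpCAM- against 20.6 ± 1.07 in coculture EpCAM- (SD, n = 2). Oas3 went the other way between fractions in coculture, with 8.26 ± 0.0984 FPKM in EpCAM+ against 1.58 ± 0.0598 in EpCAM-. Oasl1 was higher in EpCAM+ as well, at 15.8 ± 1.10 in coculture EpCAM+ against 4.13 ± 0.0669 in coculture EpCAM-. Oas1b was the exception in EpCAM+, with a change of -0.95 that fell short of 2-fold (-1.01 without coculture EpCAM+ replicate 2). Oas1a, Oas1b and Oas1g are similar in sequence and reads may have been divided between them, since the handling of shared reads is not given in the sources used here; the same limit holds for the Ifit, Ifitm, Gbp and Trim30 genes.

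The Ifit proteins bind foreign RNA ends and hold back its translation. The 3 genes did not move together. Ifit1 averaged 1.78 ± 0.0718 FPKM in monoculture EpCAM+ against 7.38 ± 0.178 in coculture EpCAM+, a change of -1.59 (SE 0.052, adjusted p = 4.52e-07, limma). It averaged 0.0304 ± 0.0137 in monoculture EpCAM- against 9.28 ± 0.467 in coculture EpCAM-, a change of -3.32 (SE 0.052, adjusted p = 4.23e-09). Ifit3 also fell in both, by 1.07 in EpCAM+ and by 1.49 in EpCAM- on the log2 scale, and its near copy Ifit3b, outside the set, changed by -1.12 and -1.56.

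Ifit2 (chromosome 19, 34550694 to 34576419) stood apart from both. It had 2.43 and 2.70 FPKM in monoculture EpCAM+, against 3.89 and 3.86 FPKM in coculture EpCAM+. In monoculture EpCAM- it had 6.59 and 6.86 FPKM, against 5.50 and 5.37 FPKM in coculture EpCAM-. The monoculture libraries were thus the lower ones in EpCAM+ and the higher ones in EpCAM-, without overlap. The changes were -0.45 (SE 0.051, adjusted p = 0.000241, limma) and 0.26 (SE 0.051, adjusted p = 0.00241), both under 2-fold. Ifit2 is also the Ifit gene whose windows held 0 ISRE cores, while the windows of Ifit1 and Ifit3 held 2 each. Whether this bears on their changes was not tested, and Oasl2 and Ifi44 fell in both fractions without a match in their windows.

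The Ifitm proteins are small membrane proteins that keep viruses from fusing with endosomes. Ifitm3 (chromosome 7, 141009586 to 141010770) had 288 and 298 FPKM in monoculture EpCAM+, against 638 and 645 FPKM in coculture EpCAM+. It had 238 and 234 FPKM in monoculture EpCAM-, against 581 and 592 FPKM in coculture EpCAM-. It therefore remained abundant everywhere, and the monoculture libraries were lower by a similar amount in both fractions. The change was -1.13 in EpCAM+ (SE 0.022, adjusted p = 3.32e-08, limma) and -1.31 in EpCAM- (SE 0.022, adjusted p = 6.42e-09).

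Ifitm2, transcribed from the same strand of the same cluster, did not follow. It had 281 and 289 FPKM in monoculture EpCAM+, against 305 and 305 FPKM in coculture EpCAM+. In EpCAM- it had 296 and 285 FPKM in monoculture, against 204 and 211 FPKM in coculture. Monoculture was slightly lower in EpCAM+ (-0.10, adjusted p = 0.0178, limma) and higher in EpCAM- (0.48, adjusted p = 2.33e-06), neither by 2-fold. The ratio of Ifitm3 to Ifitm2 was accordingly 1.02 and 1.03 in monoculture EpCAM+ against 2.09 and 2.12 in coculture EpCAM+, and 0.803 and 0.823 in monoculture EpCAM- against 2.85 and 2.81 in coculture EpCAM-. Ifitm1, between them on the chromosome, was at or near 0 and not tested, with 0.0876 and 0.0962 FPKM in monoculture EpCAM+ against 0.176 and 0.633 in coculture EpCAM+, 0.0411 and 0 in monoculture EpCAM- and 0 and 0 in coculture EpCAM-.

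**Figure D2:**
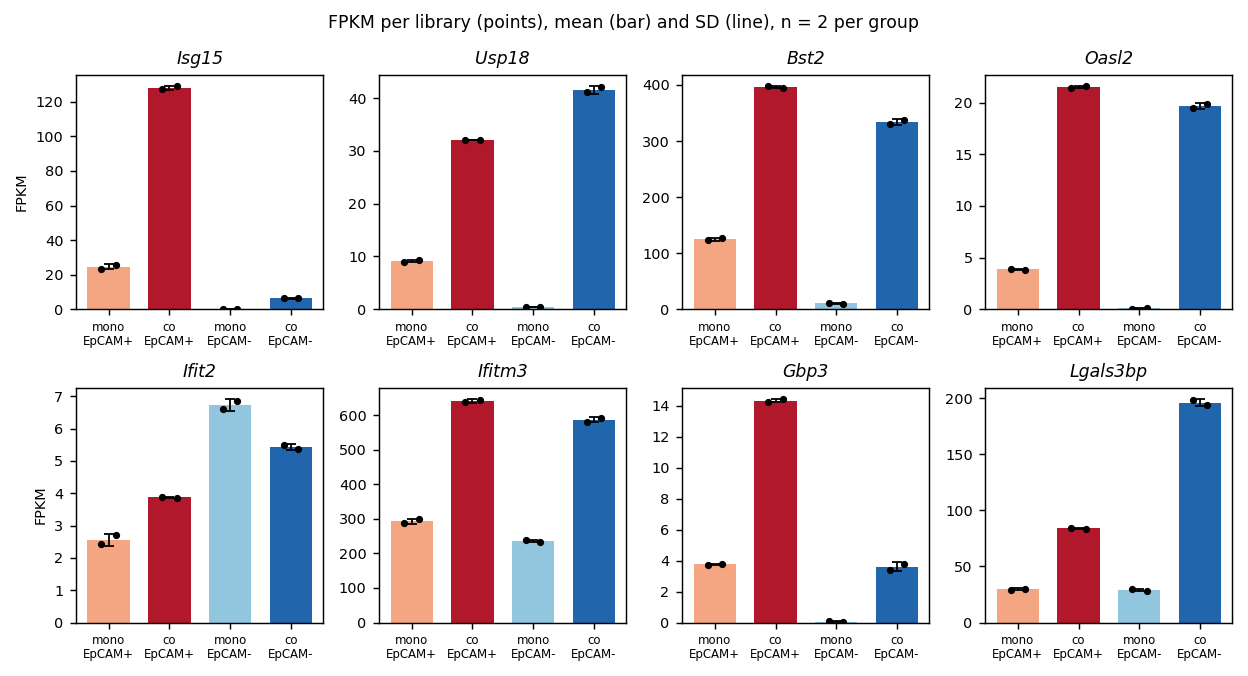
FPKM of 8 genes in the 4 groups, with points for libraries, bars for group means and lines for the SD (n = 2), each panel on its own axis from 0. Isg15 is high in EpCAM+, Usp18 and Lgals3bp are highest in coculture EpCAM-, and Ifit2 is the panel in which monoculture EpCAM- is the tallest bar, at 6.59 and 6.86 FPKM.

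The Mx proteins are dynamin-like GTPases that trap viral particles. Mx1 was at or near 0 everywhere and not tested, with 0 and 0.0121 FPKM in monoculture EpCAM+ against 0.246 and 0.214 in coculture EpCAM+, and 0 and 0 in monoculture EpCAM- against 0.0129 and 0.0319 in coculture EpCAM-. Its highest values lay in coculture EpCAM+. Mx2 averaged 0.375 ± 0.0220 FPKM in monoculture EpCAM+ against 3.14 ± 0.142 in coculture EpCAM+, and 0.00546 ± 0.00773 in monoculture EpCAM- against 2.85 ± 0.146 in coculture EpCAM-. It fell in both fractions, by 1.59 and 1.94 on the log2 scale. Mx2 reached 1 FPKM in the coculture libraries alone and entered the test through them, so these falls are a description.

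Rsad2 encodes viperin, which makes a chain-terminating nucleotide, and its divergent neighbour Cmpk2, 12751 bp away on chromosome 12, encodes a mitochondrial nucleotide kinase that supplies the substrate. Rsad2 had 0.912 and 1.06 FPKM in monoculture EpCAM+, against 3.11 and 2.84 FPKM in coculture EpCAM+. In EpCAM- it had 0.00763 and 0.0132 FPKM in monoculture, against 0.237 and 0.283 FPKM in coculture. Monoculture lay below coculture in both fractions without overlap, and every EpCAM- library lay below every EpCAM+ library. The change was -1.0 in EpCAM+ (SE 0.060, adjusted p = 9.52e-06, limma), at the edge of the 2-fold limit (-0.95 without replicate 1 of either culture), and -0.32 in EpCAM- (SE 0.060, adjusted p = 0.00224). Cmpk2 moved alike, with 0.279 ± 0.0273 FPKM in monoculture EpCAM+ against 1.76 ± 0.223 in coculture EpCAM+, and 0.00862 ± 0.000610 in monoculture EpCAM- against 0.553 ± 0.0244 in coculture EpCAM-; it entered the test through the coculture EpCAM+ libraries and was not tested without either of them. A gene under 1 FPKM in coculture cannot reach 2-fold on the scale of FPKM + 1, and both genes are in that position in EpCAM-, where 4.00% of the Rsad2 level and 1.56% of the Cmpk2 level remained in monoculture.

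Parp9, Parp12 and Parp14 belong to the ADP-ribosyltransferases, and Dtx3l is the ubiquitin ligase that works as a partner of Parp9. Parp9 (chromosome 16, 35938470 to 35972605) had 15.3 and 15.1 FPKM in monoculture EpCAM+, against 32.3 and 32.9 FPKM in coculture EpCAM+. It had 1.504 and 1.77 FPKM in monoculture EpCAM-, against 16.9 and 17.6 FPKM in coculture EpCAM-. Monoculture EpCAM+ lay close to coculture EpCAM-, and monoculture EpCAM- far below. The change was -1.05 in EpCAM+ (SE 0.051, adjusted p = 2.99e-06, limma) and -2.79 in EpCAM- (SE 0.051, adjusted p = 9.37e-09). Dtx3l overlaps Parp9 head to head at their start sites and had 12.1 ± 0.0646 FPKM in monoculture EpCAM+ against 21.2 ± 0.268 in coculture EpCAM+, and 0.859 ± 0.0245 in monoculture EpCAM- against 7.86 ± 0.537 in coculture EpCAM-. Whether strand was used in counting is not given, so reads of the overlap may belong to either gene. Of the 4 genes, 3 were called lower in EpCAM+ (median -1.03) and 4 in EpCAM- (median -2.11), with Dtx3l, at -0.77, the exception in EpCAM+. Under scaling by the median of ratios or by quantiles 1 of the 4, Parp14, was called there, Parp9 standing at -0.993 and -0.999 and Parp12 at -0.952 and -0.966. They retained 28.7% to 56.8% of the coculture level in EpCAM+ and 6.18% to 28.2% in EpCAM-, where Parp12, at 18.5 ± 0.454 FPKM in coculture, kept the most. Parp12 changed by -1.01 in EpCAM+ and fell short of the limit without replicate 1 of either culture (-0.98 without the monoculture library, -0.97 without the coculture library).

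The guanylate-binding proteins coat and break vacuoles and bacteria and are classic targets of interferon gamma. The Gbp genes fell in both fractions, and their levels were weighted to EpCAM+. Gbp3 (chromosome 3, 142560026 to 142573209) had 3.73 and 3.78 FPKM in monoculture EpCAM+, against 14.3 and 14.4 FPKM in coculture EpCAM+. It had 0.0841 and 0.0286 FPKM in monoculture EpCAM-, against 3.40 and 3.81 FPKM in coculture EpCAM-. Coculture EpCAM- stood level with monoculture EpCAM+, and the order of the other groups was clear. The change was -1.69 in EpCAM+ (SE 0.057, adjusted p = 4.79e-07, limma) and -2.12 in EpCAM- (SE 0.057, adjusted p = 5.44e-08). Gbp2 changed by -1.39 and -1.16, and Gbp7 by -1.10 and -1.32, so 3 of 3 were called lower in each fraction (medians -1.39 and -1.32). As shares of coculture, 26.2% to 34.7% remained in EpCAM+ and 1.56% to 19.0% in EpCAM-. All 3 were called higher in EpCAM+ than in EpCAM- in both cultures, although in coculture Gbp7 (1.03) fell short of the limit when scaled to the same sum (0.964), by the median of ratios (0.819) or by quantiles (0.680).

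The immunity-related GTPases act on vacuoles that hold pathogens. Igtp, also known as Irgm3 (chromosome 11, 58199556 to 58207591), had 2.38 and 2.78 FPKM in monoculture EpCAM+, against 10.6 and 10.5 FPKM in coculture EpCAM+. It had 0.326 and 0.119 FPKM in monoculture EpCAM-, against 6.38 and 6.39 FPKM in coculture EpCAM-. The groups did not overlap, and the change was -1.69 in EpCAM+ (SE 0.086, adjusted p = 4.09e-06, limma) and -2.60 in EpCAM- (SE 0.086, adjusted p = 1.55e-07). Irgm1 was more abundant, at 23.3 ± 0.266 FPKM in monoculture EpCAM+ against 44.4 ± 0.481 in coculture EpCAM+, and 17.7 ± 0.153 in monoculture EpCAM- against 64.9 ± 1.99 in coculture EpCAM-. Its change was -0.90 in EpCAM+, which fell short of 2-fold, and -1.82 in EpCAM-. Iigp1 stayed under 1 FPKM in every library and was not tested, with 0.132 and 0.0540 FPKM in monoculture EpCAM+ against 0.706 and 0.822 in coculture EpCAM+, and 0.0643 and 0.0165 in monoculture EpCAM- against 0.559 and 0.617 in coculture EpCAM-.

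The tripartite motif proteins and the nuclear body proteins Pml and Sp100 were the group least often called in EpCAM+, with 1 of 5 lower there (median -0.73) and 4 of 5 in EpCAM- (median -1.58). Trim21 binds antibody-coated virus, Trim25 activates the RNA sensor RIG-I, and Trim30a restrains inflammatory signalling in the mouse. Trim30a (chromosome 7, 104409025 to 104465193) had 0.333 and 0.269 FPKM in monoculture EpCAM+, against 1.25 and 1.44 FPKM in coculture EpCAM+. In monoculture EpCAM- it had 0.0958 and 0.10 FPKM, against 6.56 and 6.84 FPKM in coculture EpCAM-. The coculture EpCAM- libraries stood well above all others, and monoculture was the lower culture in each fraction. The change was -0.85 in EpCAM+ (SE 0.059) and -2.81 in EpCAM- (SE 0.059). Trim30a reached 1 FPKM in the coculture libraries alone and entered the test through them, so these changes are a description. With the estimated EpCAM- share subtracted, its coculture EpCAM+ values were 1.13 and 1.32 FPKM. Sp100 was the gene of this group called in EpCAM+, with 0.743 ± 0.166 FPKM in monoculture EpCAM+ against 3.22 ± 0.208 in coculture EpCAM+, and 1.28 ± 0.235 in monoculture EpCAM- against 5.78 ± 0.0200 in coculture EpCAM-.

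Pml, the scaffold of the nuclear body, stayed under a 2-fold change in both fractions. It had 8.05 and 7.80 FPKM in monoculture EpCAM+, against 11.1 and 11.2 FPKM in coculture EpCAM+. It had 14.2 and 14.4 FPKM in monoculture EpCAM-, against 21.1 and 22.4 FPKM in coculture EpCAM-. Monoculture was lower in each fraction without overlap, by -0.45 (adjusted p = 6.23e-05, limma) and -0.57 (adjusted p = 7.89e-06), under 2-fold in both. Trim25 and Trim21 fell by 2.07 and 1.33 in EpCAM- and stood at -0.56 and -0.73 in EpCAM+.

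Among the other genes, Bst2 encodes tetherin, which holds budding virus at the cell surface. Bst2 (chromosome 8, 71534255 to 71537456) had 123 and 126 FPKM in monoculture EpCAM+, against 398 and 395 FPKM in coculture EpCAM+. In monoculture EpCAM- it had 10.5 and 10.1 FPKM, against 329.6 and 338 FPKM in coculture EpCAM-. The coculture groups were close, and monoculture EpCAM- lay far below the rest. The change was -1.66 in EpCAM+ (SE 0.025, adjusted p = 1.19e-08, limma) and -4.89 in EpCAM- (SE 0.025, adjusted p = 4.21e-11), rank 2 from the bottom of all genes tested in EpCAM-.

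Ifi44, an interferon-induced protein with antiproliferative activity (chromosome 3, 151730922 to 151749960), followed the same pattern. It had 8.70 and 7.90 FPKM in monoculture EpCAM+, against 33.8 and 34.1 FPKM in coculture EpCAM+. It had 0.327 and 0.447 FPKM in monoculture EpCAM-, against 34.7 and 35.7 FPKM in coculture EpCAM-. Its coculture levels were nearly equal in the 2 fractions and its monoculture levels were not, with changes of -1.91 (SE 0.056, adjusted p = 2.55e-07, limma) and -4.71 (SE 0.056, adjusted p = 1.34e-09). Rtp4, a receptor-transporting protein with antiviral activity (chromosome 16, 23520291 to 23614222), had 8.94 and 9.82 FPKM in monoculture EpCAM+, against 41.5 and 42.4 FPKM in coculture EpCAM+. It had 0.785 and 0.915 FPKM in monoculture EpCAM-, against 26.4 and 26.4 FPKM in coculture EpCAM-. The groups kept apart, and the changes were -2.05 (SE 0.052, adjusted p = 1.25e-07, limma) and -3.89 (SE 0.052, adjusted p = 2.12e-09).

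Lgals3bp encodes a secreted galectin-3-binding glycoprotein (chromosome 11, 118392751 to 118402092). It had 29.1 and 30.2 FPKM in monoculture EpCAM+, against 84.3 and 83.5 FPKM in coculture EpCAM+. It had 29.6 and 28.4 FPKM in monoculture EpCAM-, against 198 and 194 FPKM in coculture EpCAM-. The monoculture groups overlapped each other, while coculture EpCAM- stood above coculture EpCAM+, so the change was -1.47 (SE 0.029, adjusted p = 3.35e-08, limma) and -2.72 (SE 0.029, adjusted p = 9.10e-10).

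Ifi27l2a encodes a small membrane protein of the Ifi27 family (chromosome 12, 103442167 to 103443680) and was the gene most weighted to EpCAM- in coculture. It had 0.181 and 0 FPKM in monoculture EpCAM+, against 2.04 and 1.10 FPKM in coculture EpCAM+. It had 1.36 and 1.04 FPKM in monoculture EpCAM-, against 35.0 and 35.8 FPKM in coculture EpCAM-. The coculture EpCAM- libraries stood far above all others. Its change in EpCAM- was -4.05 (SE 0.17, adjusted p = 4.83e-07, limma). In EpCAM+ it was -1.22 (SE 0.17, adjusted p = 0.000657), which rests on low values. With the estimated EpCAM- share subtracted, coculture EpCAM+ had 1.43 and 0.483 FPKM and the change was -0.81 (adjusted p = 0.0150, limma). Without coculture EpCAM+ replicate 1 the change was -0.95. The related gene Ifi27, outside the set, averaged 36.0 ± 0.370 FPKM in monoculture EpCAM+ against 95.8 ± 1.30 in coculture EpCAM+, and 74.7 ± 0.816 in monoculture EpCAM- against 69.3 ± 0.930 in coculture EpCAM-.

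Epsti1, linked to epithelial and stromal contact in breast tissue by its name (chromosome 14, 77904239 to 78002657), was the opposite case. It had 0.358 and 0.456 FPKM in monoculture EpCAM+, against 2.16 and 2.35 FPKM in coculture EpCAM+. It was listed at 0 in both monoculture EpCAM- libraries, and had 0.0169 and 0 FPKM in coculture EpCAM-. The gene was thus detected in EpCAM+ and at or near 0 in EpCAM-, where it could not fall further. It reached 1 FPKM in the 2 coculture EpCAM+ libraries alone and entered the test through them, so its change of -1.21 in EpCAM+ is a description; without either of those libraries it was not tested. Ddx60, a helicase-like protein, entered the test through the same 2 libraries. It averaged 0.637 ± 0.0162 FPKM in monoculture EpCAM+ against 3.61 ± 0.0809 in coculture EpCAM+, and 0.00221 ± 0.00312 in monoculture EpCAM- against 0.783 ± 0.0666 in coculture EpCAM-. It kept 17.6% of its coculture level in EpCAM+ and 0.282% in EpCAM-, where its change was -0.83 on the scale of FPKM + 1 and -1.35 and -3.11, both called, with 0.5 and 0.1 added.

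Nmi and Ifi35, which bind each other, both fell in both fractions. Nmi averaged 12.5 ± 0.351 FPKM in monoculture EpCAM+ against 26.6 ± 0.161 in coculture EpCAM+, and 0.654 ± 0.0108 in monoculture EpCAM- against 3.68 ± 0.193 in coculture EpCAM-. Ifi35 averaged 16.2 ± 0.151 FPKM in monoculture EpCAM+ against 36.4 ± 1.23 in coculture EpCAM+, and 7.41 ± 0.142 in monoculture EpCAM- against 17.4 ± 0.452 in coculture EpCAM-. Its 2 changes, -1.12 and -1.13, were almost equal, with a difference of 0.01 (SE 0.051). Xaf1, a proapoptotic protein, fell by 1.52 in EpCAM+ and 2.59 in EpCAM- on the log2 scale. Samd9l, an antiviral growth suppressor, fell by 2.06 in EpCAM- and stood at -0.93 in EpCAM+ (-1.003, just past the limit, without monoculture EpCAM+ replicate 2).

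The question the design poses for these genes is whether the fall differs in size between the fractions. At the 2-fold rule 28 genes were lower in both fractions, 5 in EpCAM+ alone, 7 in EpCAM- alone and 4 in neither. The 5 were Rsad2, Cmpk2, Uba7, Ddx60 and Epsti1. All but Uba7 were under 1 FPKM in coculture EpCAM- and could not reach 2-fold there. Uba7 lay at the limit in each fraction, and scaling by the median of ratios or by quantiles placed it in EpCAM- alone. The 7 were Oas1b, Dtx3l, Samd9l, Trim21, Trim25, Trim30a and Irgm1, and the 4 were Ifit2, Ifitm2, Herc6 and Pml. The difference of the changes, EpCAM+ minus EpCAM-, was called positive, a larger fall in EpCAM-, for 17 of 44, beside 2.43% of all genes tested. It was called negative for 1, Epsti1, beside 5.66% of all genes; without either coculture EpCAM+ library, or with a filter of 5 FPKM, Epsti1 was not tested. Trim30a, among those called positive, reached 1 FPKM in coculture libraries alone, so its difference is a description. The median difference was 0.45, against -0.08 over all genes. With no minimum change, 30 were positive and 9 negative, beside 26% and 39.2% of all genes.

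**Figure D3:**
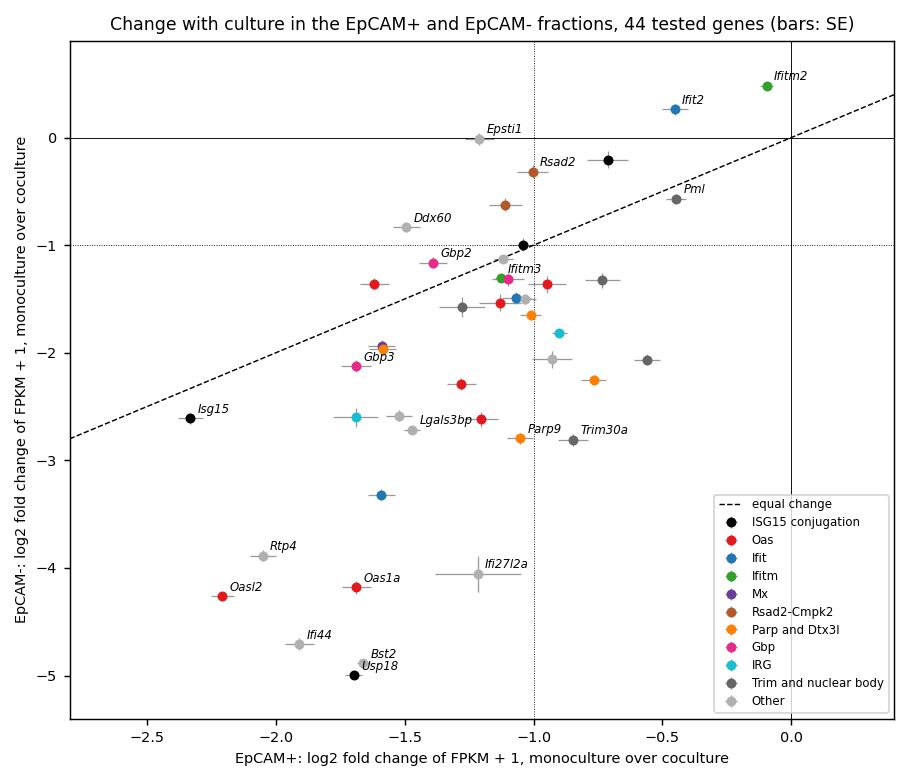
Log2 fold change of FPKM + 1, monoculture over coculture, in EpCAM+ (x axis) against EpCAM- (y axis) for the 44 tested genes, coloured by family, with SE bars; the dashed line marks equal change and the dotted lines 2-fold. Usp18, Bst2 and Ifi44 lie lowest, near -5.0 to -4.71 in EpCAM- and -1.91 to -1.66 in EpCAM+, and Ifit2 and Ifitm2 lie above 0 in EpCAM-.

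The largest differences were those of Usp18 (3.30, SE 0.048, adjusted p = 5.26e-09, limma), Bst2 (3.23, SE 0.036, adjusted p = 1.75e-09) and Ifi27l2a (2.84, SE 0.23, adjusted p = 2.53e-05). Ifi44 (2.80), Oas1a (2.49) and Oasl2 (2.06) came next, and Oasl1 (1.01) was the one nearest the limit, at 0.99 without monoculture EpCAM- replicate 1 and 0.95 without coculture EpCAM+ replicate 2. At the other end stood Epsti1 (-1.20), whose sign was fixed by its absence from EpCAM-, Ifit2 (-0.72, SE 0.072, adjusted p = 7.20e-05, limma) and Rsad2 (-0.69, SE 0.085, adjusted p = 0.000237). With 0.1 in place of 1 added to FPKM, the differences of Rsad2 (0.20), Cmpk2 (0.29), Ddx60 (0.78), Gbp2 (0.60), Oas3 (2.02) and Uba7 (0.17) turned positive and that of Ifi27l2a was 1.53 (adjusted p = 0.0753), while those of Epsti1 and Ifit2 stayed negative. By family, the difference was called positive for 4 of 7 Oas genes, 1 of 3 Ifit genes and 2 of 4 in the Parp group. In the Trim group it was called positive for 2 of 5, Trim25 and, as a description, Trim30a. It was positive for 7 and negative for 1 of the 11 genes outside the named families, and for 1 of 4 genes of the ISG15 system, Usp18, it was positive. It was called for 0 of the 2 tested Ifitm genes, 0 of the 2 immunity-related GTPases and 0 of 3 Gbp genes. At p alone, Gbp3 was positive (0.43, adjusted p = 0.00198, limma), Gbp2 negative on this scale (-0.23, adjusted p = 0.0294) and Gbp7 not called (0.22, adjusted p = 0.0567). Igtp, at 0.91, was called positive under the median of ratios (1.06), under quantiles (1.07) and with 0.5 (1.42) or 0.1 (2.42) added. Without monoculture EpCAM- replicate 1 it stood at 1.03. Gbp3 was called positive with 0.5 (1.08) or 0.1 (2.68) added, and Gbp7 with 0.1 (1.92) added. Across the 44 genes the 2 changes had a Pearson correlation of 0.66 and a Spearman correlation of 0.60, as a description over genes that share their libraries.

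As shares of the coculture level the contrast between fractions was wider. Of the 40 genes whose mean reached 1 FPKM in coculture EpCAM+ and in coculture EpCAM-, 37 kept a smaller share in EpCAM- than in EpCAM+, and the exceptions were Ifit2, Ifitm2 and Herc6. The median share kept in monoculture was 33.1% in EpCAM+ and 6.20% in EpCAM-, while over the 9935 genes that met the same condition it was 96.2% in EpCAM+ and 99.8% in EpCAM-. For low genes the added constant weighs on this comparison. Isg15 kept 19.3% in EpCAM+ and 3.32% in EpCAM-, while its difference on the scale of FPKM + 1 was 0.28 (SE 0.071, adjusted p = 0.00993, limma). With the constant of 0.1 that difference was 2.01, and that of Gbp3 was 2.68 in place of 0.43. Ranked by family, the median share kept in EpCAM- was smallest for Oas and for Mx2, at 0.392% and 0.192%, and largest for the Ifitm pair, at 90.1%.

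**Figure D4:**
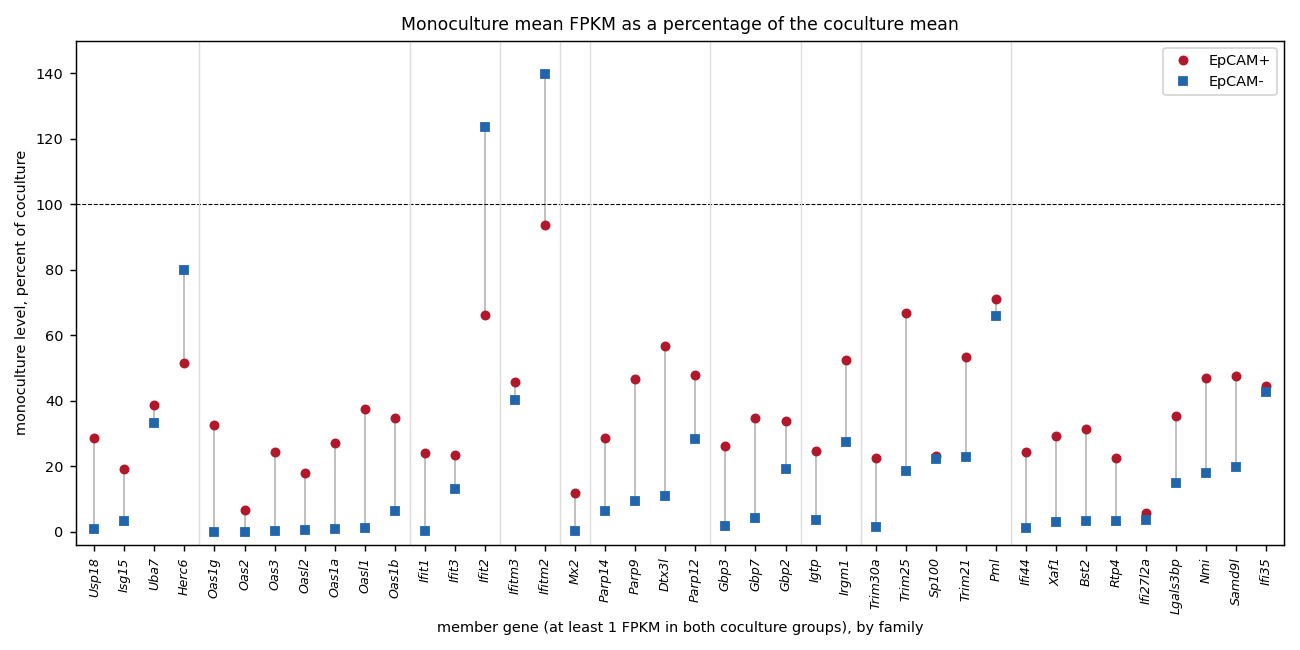
Monoculture mean FPKM as a percentage of the coculture mean for the 40 genes of at least 1 FPKM in both coculture groups, circles for EpCAM+ and squares for EpCAM-, grouped by family, with a dashed line at 100%. The squares lie below the circles for 37 of 40 genes, and Ifit2 and Ifitm2 lie above 100% in EpCAM-.

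The genes were also compared between the fractions within each culture. In monoculture, 24 of 44 were called higher in EpCAM+ than in EpCAM- and 2 lower, Ifit2 and Ifi27l2a (Ifi27l2a at -1.01, and at -0.89 and -0.91 without monoculture EpCAM+ replicate 2 and monoculture EpCAM- replicate 1), where 15.5% of all genes were higher and 12.6% lower. In coculture 14 were higher and 3 lower, where 16.5% of all genes were higher and 10.1% lower; scaling by the median of ratios gave 11 higher and 5 lower, and by quantiles 11 and 6. Without coculture EpCAM+ replicate 2, Gbp7 (0.96) and Ifi35 (0.99) were no longer called, and Ddx60 and Epsti1 were no longer tested, as also without replicate 1. Ifi35 was not called without coculture EpCAM- replicate 2 either, at 0.999. The 3 lower in coculture were Ifi27l2a (-3.85, adjusted p = 1.17e-07, limma), Trim30a (-1.72, adjusted p = 2.72e-08) and Lgals3bp (-1.21, adjusted p = 3.22e-09). With no minimum change, 37 were higher and 4 lower in monoculture, beside 55.4% and 32.4% of all genes, and 28 higher and 13 lower in coculture, beside 59.2% and 28% of all genes, shares close to those of the set. The median difference was 1.19 in monoculture and 0.58 in coculture, against 0.23 and 0.26 over all genes. These fraction medians over all genes became 0.01 and 0.00 under scaling by the median of ratios, so small differences between fractions depend on scaling.

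**Figure D5:**
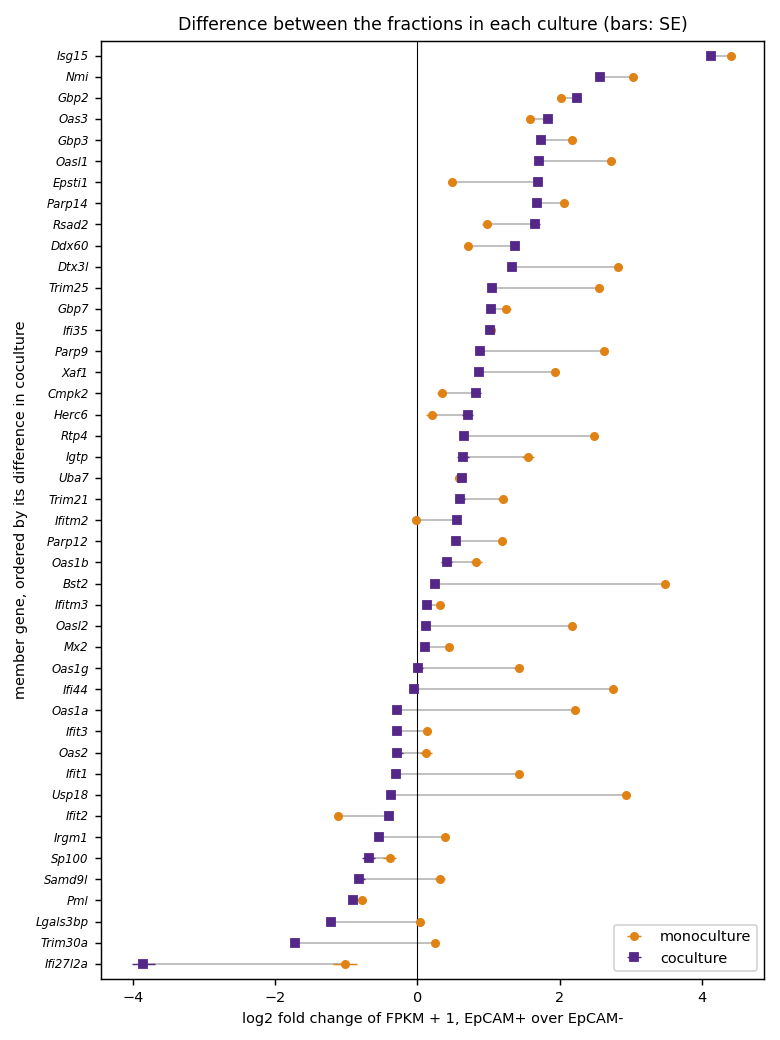
Log2 fold change of FPKM + 1, EpCAM+ over EpCAM-, for the 44 tested genes, circles for monoculture and squares for coculture, with SE bars and genes ordered by the coculture value. Isg15 is at the top in both cultures (4.40 and 4.13), Ifi27l2a at the bottom in coculture (-3.85), and Usp18, Bst2 and Ifi44 lie within 0.37 of 0 in coculture and at 2.75 or more in monoculture.

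Isg15 had the largest difference between fractions, 4.40 in monoculture (SE 0.050, adjusted p = 4.73e-11, limma) and 4.13 in coculture (SE 0.050, adjusted p = 7.40e-11). Among the genes higher in EpCAM+ in coculture, Nmi at 2.56 and Gbp2 at 2.24 came next. Ifi44 gave no call between fractions in coculture (-0.05, SE 0.056, adjusted p = 0.401) and lay far apart in monoculture (2.75, SE 0.056, adjusted p = 1.12e-09). Usp18 was slightly lower in EpCAM+ in coculture (-0.37, adjusted p = 1.40e-05) and higher in monoculture (2.93, adjusted p = 5.07e-11). Bst2, Ifitm3 and Oasl2 differed by 0.25, 0.13 and 0.12 in coculture, and each of these turned negative under scaling by the median of ratios. Lgals3bp was level in monoculture (0.03, adjusted p = 0.328) and also changed sign with scaling.

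The changes can be set beside the promoter windows, as a description. Of the 18 with a match, 14 were called lower in EpCAM+ and 15 in EpCAM-, with median changes of -1.30 and -1.65. Of the 19 without a match 18 were tested; 12 were called lower in each fraction, with medians of -1.08 and -1.61. The genes described above fall on both sides: Isg15, Bst2, Ifit1, Gbp2 and Ifitm3, with 1 to 3 matches, fell in both fractions, Ifitm2 with 1 match did not, and Oasl2 and Ifi44 fell without a match in these windows.

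The rest of the pathway was read from lists chosen by name. Interferon genes themselves were at or near 0: none of the 9 ligands on the list was tested, and Ifnb1, the interferon beta gene, averaged 0.0813 FPKM in coculture EpCAM+ and 0 in the other groups. None of the 6 receptor genes was called in either fraction; Ifnar1, a chain of the type I receptor, averaged 8.51 ± 0.296 FPKM in monoculture EpCAM+ against 9.10 ± 0.418 in coculture EpCAM+, and 10.6 ± 0.0575 in monoculture EpCAM- against 9.91 ± 0.150 in coculture EpCAM-. Of the 13 tested JAK, STAT and IRF genes, 4 were lower in each fraction and 0 higher. Of all genes tested, 1.67% were lower in EpCAM+ and 1.96% in EpCAM-. Irf7, the amplifier of type I interferon output, averaged 4.72 ± 0.292 FPKM in monoculture EpCAM+ against 32.5 ± 0.0173 in coculture EpCAM+, and 0.253 ± 0.0470 in monoculture EpCAM- against 32.6 ± 0.0401 in coculture EpCAM-, changes of -2.55 and -4.75 (adjusted p = 2.75e-08 and 7.06e-10, limma).

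Sensors of nucleic acid were called lower for 2 of 12 in EpCAM+ and 5 of 12 in EpCAM-. The shares over all genes, 1.67% and 1.96%, stand beside these counts and those of the lists that follow. Zbp1, a sensor of Z-form nucleic acid, changed by -2.77 in EpCAM+, and the RNA sensors Ifih1 and Ddx58 by -2.07 each in EpCAM-. Genes of MHC class I presentation were lower for 4 of 12 in EpCAM+ and 5 of 12 in EpCAM-, none higher. There the peptide transporter Tap2 fell by 1.92 on the log2 scale in EpCAM+, to 7.28 ± 0.251 FPKM in monoculture against 30.2 ± 0.529 in coculture, and had 7.00 ± 0.232 FPKM in monoculture EpCAM- against 6.10 ± 0.394 in coculture EpCAM-. The class I heavy chain H2-D1 fell by 2.22 in EpCAM-. Of 44 tested genes on a list of other interferon-induced genes, 14 were lower in EpCAM+ and 12 in EpCAM- and none higher, with medians of -0.56 and -0.55; the largest falls were those of Apol9a (-2.48) and Apol9b (-2.37) in EpCAM+ and Slfn2 (-3.24) and Apol9b (-2.90) in EpCAM-. Beside 1.67% of all genes lower in EpCAM+ and 1.96% in EpCAM-, of 18 tested relatives of the Oas, Ifit, Ifitm, Gbp, Parp, Trim30, Ifi27 and Herc genes, 3 were lower in EpCAM+ (Gbp2b, Ifi27 and Ifit3b) and 2 in EpCAM- (Parp10 and Ifit3b), and with no minimum change 11 were lower in each fraction. Immediate early and heat shock genes, which can move with handling of cells, were lower for 1 of 14 in EpCAM+, with 0 higher. In EpCAM- 2 of 14 were lower and 2 higher, beside 1.96% and 2.56% of all genes. The part of these genes in the falls was not tested.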

How the data were processed

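RNA sequencing (150 bp paired-end reads) of 8 libraries, 2 in each of 4 groups, was deposited by the authors as FPKM values, 1 file a library, with gene names and identifiers. FastQC, cutadapt, HISAT2, SAMtools, HTSeq, edgeR and the mm10 build are named per the submitters' processing notes, without their roles. Not given in the sources used here are the tool behind FPKM, its annotation, the use of strand and the handling of shared reads. Groups were taken from the sample labels.

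Genes of at least 1 FPKM in at least 2 of the 8 libraries (12012 of 24421) were tested on log2(FPKM + 1) with limma 3.58.1 (R 4.3.3), with group means of all 8 libraries, 4 residual degrees of freedom and a mean-variance trend. P-values were adjusted by Benjamini-Hochberg over all genes tested, and a call needed an adjusted p under 0.05 and a 2-fold change. The fit was also run on simulated data with the spread seen between these libraries. That run cannot tell whether calls would hold across separate cultures. Tables were made in Python 3.11.15 with NumPy 2.4.6, pandas 2.3.3 and SciPy 1.17.1; matplotlib 3.10.9 drew the plots. The EpCAM- share of an EpCAM+ library was estimated as the median over mesenchymal markers of their level there relative to EpCAM-. The reverse share used epithelial markers. Gene positions are from GENCODE M21 (GRCm38), promoters from RefSeq (GRCm38.p6).

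The genes and lists were chosen with earlier results of these data known. Values are given library by library for the gene with the highest mean over the 8 libraries in the Oas, Ifit, Ifitm, Gbp and Parp families, for Isg15, Usp18, Bst2, Mx1, Rsad2, Igtp, Trim30a, Lgals3bp and Ifi27l2a, and for the 3 lowest and 3 highest tested genes by change in each fraction and by the difference of the changes; Ifitm1 and Iigp1 were added because they were not tested. In the other lists, up to 2 called genes per fraction were named, and Ifnar1, Ifnb1 and Ifi27 were named after their values were seen. Other scalings, added constants, filters, fits and fold limits, a replicate block and the removal of single libraries were tried as alternatives. Rnf213, Trim30c and Herc5 were not analysed here, and a result on 1 gene of the signalling list is not reported here.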

Additional observations from a re-analysis of the deposited data

Results flagged for a closer look

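For 18 genes the change from coculture differed between the fractions by at least 2-fold on the log2(FPKM + 1) scale in a test of that difference (limma, adjusted over all genes tested). The difference, EpCAM+ minus EpCAM-, was largest for Usp18 (3.30), Bst2 (3.23), Ifi27l2a (2.84), Ifi44 (2.80) and Oas1a (2.49). It was 2.06 for Oasl2, 1.96 for Trim30a, 1.84 for Rtp4, 1.74 for Parp9, 1.73 for Ifit1, 1.504 for Trim25 and 1.48 for Dtx3l. It was 1.42 for Oas1g, 1.24 for Lgals3bp, 1.13 for Samd9l, 1.06 for Xaf1 and 1.01 for Oasl1. For Epsti1 it was -1.20, but this gene was at or near 0 in every EpCAM- library, so the sign was fixed, and without either coculture EpCAM+ library or with a filter of 5 FPKM it was not tested. Trim30a reached 1 FPKM in coculture libraries alone and entered the test through them, so its difference is a description. Ifi27l2a averaged 1.57 FPKM in coculture EpCAM+, which limits its fall there on this scale. It kept 5.77% of its coculture level in EpCAM+ and 3.38% in EpCAM-. With 0.1 added to FPKM its difference was 1.53 and was not called (adjusted p = 0.0753, limma). Over the 18 genes the adjusted p-values ran from 1.75e-09 (Bst2) to 5.47e-05 (Samd9l).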

How the results depend on the processing

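The counts of genes called changed by under 1.5 times under most alternatives. The exceptions were the difference of the changes, 18 genes, which became 28 with 0.1 added to FPKM and 39 with no minimum fold, the monoculture comparison of fractions, 26 genes, which became 41 with no minimum fold, and the coculture comparison, 17 genes, which became 41 with no minimum fold and 28 at 1.5-fold. Leaving out single libraries gave 27 to 33 calls in EpCAM+, 35 to 36 in EpCAM-, 16 to 18 for the difference, and 25 to 27 and 13 to 17 between fractions in monoculture and coculture; a lone library was assumed to vary like the other groups. A fit of the compared libraries alone gives no value for the difference. In EpCAM+ the count was 27 under scaling by the median of ratios and 23 under quantiles, and in EpCAM- no call was lost under either.

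The difference of the changes turned sign for Cmpk2 (0.29), Ddx60 (0.78), Gbp2 (0.60), Oas3 (2.02), Rsad2 (0.20) and Uba7 (0.17) with 0.1 added, and for Gbp2 (0.072), Oas3 (0.24) and Uba7 (0.039) with 0.5 added. Uba7 was also positive under the median of ratios (0.045), under quantiles (0.18) and without monoculture EpCAM+ replicate 2 (0.026), and Oas3 under quantiles (0.0092). Ifi35 was negative without coculture EpCAM+ replicate 1 (-0.023), without monoculture EpCAM- replicate 2 (-0.0063) and without coculture EpCAM- replicate 1 (-0.014). In monoculture, the difference between fractions turned sign for Ifit3 under quantiles (-0.058), for Ifitm2 without monoculture EpCAM- replicate 1 (0.0034, the others going down to -0.053), and for Lgals3bp under the same sum (-0.036), the median of ratios (-0.21) and quantiles (-0.13). In coculture it did so for Bst2 (-0.039), Ifitm3 (-0.16), Mx2 (-0.11), Oas1g (-0.23) and Oasl2 (-0.15) under the median of ratios, and for Mx2 (-0.24), Oas1g (-0.34) and Oasl2 (-0.099) under quantiles. Oas1g was also negative under the same sum (-0.072), with the other fraction's share subtracted (-0.010), without coculture EpCAM+ replicate 2 (-0.070, the others going up to 0.085) and without coculture EpCAM- replicate 1 (-0.046). The cause was not tested. Over these genes, comparisons and alternatives, 4126 values kept their direction and side of the threshold, 47 lost and 52 gained a call, and 33 turned sign.

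Over all genes, 55.2% of calls between fractions were higher in EpCAM+ in monoculture and 62.0% in coculture, while scaling by the median of ratios gave 44.2% and 49.7%, and quantiles gave 47.4% and 48.0%. Between cultures in EpCAM+, 13.7% of calls were higher in monoculture, and 24.4% under quantiles; of the differences of the changes, 30.04% were positive, and 42.8% under quantiles.

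Same-numbered libraries did not deviate together (correlations from -0.0726 to 0.0406 over 12012 genes). This cannot tell whether they came from the same culture, since the variation from library to library may be technical. A replicate block gave the same counts, 33 in EpCAM+, 35 in EpCAM-, 18 for the difference, and 26 and 17 between fractions. The depth in reads is unknown, so values near 0 carry no counting error and the small constants above weigh most on them.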

Other observations

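Genes of MHC class I presentation differed between the fractions in which of them stood lower in monoculture. Psmb8, a subunit of the immunoproteasome, averaged 9.30 ± 0.475 FPKM in monoculture EpCAM+ against 35.8 ± 0.403 in coculture EpCAM+, and 0.188 ± 0.0524 in monoculture EpCAM- against 2.50 ± 0.493 in coculture EpCAM- (SD, n = 2), with changes of -1.84 and -1.55. The class I heavy chain H2-D1 averaged 61.4 ± 0.946 FPKM in monoculture EpCAM+ against 123 ± 6.63 in coculture EpCAM+, and 11.97 ± 1.13 in monoculture EpCAM- against 59.4 ± 4.07 in coculture EpCAM-. Its change was -0.99 in EpCAM+, under 2-fold, and -2.22 in EpCAM-, and the difference between them was 1.23 (adjusted p = 1.76e-05, limma). For Tap2 the difference was -2.09 with the opposite sign, from a change of -1.92 in EpCAM+ and 0.17 in EpCAM-.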
